A study of Mus musculus with 26 samples.

Results

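The genes described here are 10 genes through which macrophages take up, carry, store and export lipid. They were chosen by name: Apoe, Lpl, Cd36, Trem2, Fabp4, Fabp5, Abca1, Abcg1, Nr1h3 and Plin2, out of 50104 genes that all 3 deposited tables list. All 10 passed the filter on low counts in each of the 3 cell types, and 0 were lost. RNA was sequenced from cells that were FACS sorted from naive female mice, WT or ACKR2-/-. Each genotype had 4 samples of bone marrow monocytes, 4 of small peritoneal macrophages (SPMs) and 5 of MHCII negative lung macrophages. ACKR2 is an atypical chemokine receptor that takes up inflammatory chemokines without signalling in the usual way, and ACKR2-/- mice lack it. WT mice were C57BL/6J animals from a supplier and ACKR2-/- mice were bred by the authors, so origin and genotype cannot be told apart. Each monocyte and SPM sample held cells of several mice. The methods state this pooling in a passage on monocytes and SPMs, and whether it covers the lung samples too is unclear. The labels give no age.

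Macrophages meet lipid as lipoprotein particles, as fatty acids and as the membranes of dead cells. Surface receptors such as CD36 take it in, fatty acid binding proteins carry it through the cytosol, and perilipins coat the droplets in which it is stored. Sterol that is not stored activates the liver X receptors, nuclear receptors that switch on the exporters ABCA1 and ABCG1 and the lipoprotein component APOE. Alveolar macrophages, which clear lung surfactant, are known for a strong programme of this kind.

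The tables hold reads per gene, and values below are CPM, which put each gene's reads on a common total per library, after TMM scaling, which takes most genes to be unchanged between samples. Between 15450670 and 19218213 reads per monocyte sample were counted on genes, 12781144 to 35400034 per SPM sample and 19950019 to 29770252 per lung sample. In bulk samples, fewer cells of a type and less RNA per cell cannot be told apart. Ackr2, the targeted gene, had 0 reads in ACKR2-/- SPMs and 5 to 9 in WT SPMs, and 7 to 50 in ACKR2-/- against 150 to 469 in 4 WT lung samples, while the library labelled WT replicate 5 of the lung had 0. Monocytes held too few Ackr2 reads, 0 to 2, for this check. Monocytes and SPMs carried the markers of their labels, with 6 of 6 monocyte markers at a summed 4323 to 8288 CPM in monocytes and 7 of 7 SPM markers at 44734 to 69307 CPM in SPMs. The lung gate described in the methods took SiglecF- interstitial macrophages. In the lung samples the alveolar macrophage markers summed to 702 to 1846 CPM, and the interstitial macrophage markers to 401 to 1871 CPM in 9 of 10 samples and 12732 CPM in WT replicate 3, while in SPMs, whose table was scaled separately, the interstitial list summed to 9112 to 16848 CPM. Several libraries stood apart in markers of other cells. In the lung, H2-Ab1, which encodes an MHCII chain, was at 21242 CPM in WT replicate 3 and at 253 to 1708 in the other 9. Lung samples also held RNA of epithelial genes, with a sum over 8 of 8 markers of 253 to 19052 CPM, lowest in ACKR2-/- replicate 4 and in the library labelled WT replicate 5. Sums in the lung were 83.7 to 910 CPM for endothelial markers and 56.2 to 885 for fibroblast markers. They were 125 to 1949 CPM for B cell markers and 76.7 to 485 for T cell markers. ACKR2-/- replicates 1 and 4 of the SPMs had sums over 6 of 6 large peritoneal macrophage markers of 14685 and 18762 CPM, mostly Saa3, against 885 to 3463 in the other 6. In monocytes the sum over 7 of 7 neutrophil markers ran from 12655 to 66321 CPM, above the sum of the monocyte markers in every sample. The sum over 6 of 6 T cell markers was 56.2 to 97.2 in ACKR2-/- and 2.73 to 3.80 in WT monocyte samples. Their part in the results below was not tested, except where values without those libraries are given.

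The members lie on 7 chromosomes of the mouse genome, build mm10 (GRCm38). Apoe is at chr7:19696109-19699188, Lpl at chr8:68880491-68907448, Cd36 at chr5:17781690-17888801 and Trem2 at chr17:48346401-48354147. Fabp5 at chr3:10012548-10016607 and Fabp4 at chr3:10204088-10208576 are 187 kb apart on chromosome 3. Abca1 is at chr4:53030787-53159895, Plin2 at chr4:86648386-86670060, Abcg1 at chr17:31057698-31115777 and Nr1h3 at chr2:91184061-91202834. RefSeq windows from 250 bases before to 50 bases after a start site were matched for 6 members, Nr1h3, Abca1, Plin2, Cd36, Apoe and Trem2, in 9 windows of build GRCm38.p6. They were searched on both strands for AGGTCA, the half-site of nuclear receptors such as the LXR and PPAR families, which lay in 1 window each of Cd36, Plin2 and Trem2 and in 16.3% of all 32851 windows. The half-site repeated in the same direction with 1 or with 4 bases between the copies, which contains the single half-site, was in 0 of the 9 windows and in 0.0396% and 0.0152% of all. The TATA motif TATAAA was in windows of Abca1 and Apoe and in 13.6% of all, and in Abca1 it began 29 bases before the start site. The letters CACGTG were found for Abca1 and Plin2 (7.15% of all windows), and GGGCGG for Cd36, Abca1 and Plin2 (35.7%). A match is a stretch of letters and not a measured site. The Cd36 and Plin2 windows are shown because these genes varied together among samples of a cell type, as described further on, those of Trem2 and Abca1 because both genes were far higher in the macrophages than in monocytes. Every window shown holds a marked motif. The Cd36 window lies inside the span of the gene given above and not at its outer start, and whether these cells start transcripts there was not tested. Apoe and Nr1h3 were also far higher in the macrophages and are not shown. The Nr1h3 windows held none of the motifs searched, and 1 Apoe window did. Capitals mark TGACCT, which is AGGTCA read on the other strand, or TATAAA.
Cd36 (chr5:17835847-17836146, minus strand): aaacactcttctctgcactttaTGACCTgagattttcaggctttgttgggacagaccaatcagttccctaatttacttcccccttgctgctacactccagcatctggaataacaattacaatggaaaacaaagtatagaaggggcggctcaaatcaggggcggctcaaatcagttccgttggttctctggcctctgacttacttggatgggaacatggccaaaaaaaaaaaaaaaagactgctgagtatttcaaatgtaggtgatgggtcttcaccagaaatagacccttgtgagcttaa
Plin2 (chr4:86670010-86670309, minus strand): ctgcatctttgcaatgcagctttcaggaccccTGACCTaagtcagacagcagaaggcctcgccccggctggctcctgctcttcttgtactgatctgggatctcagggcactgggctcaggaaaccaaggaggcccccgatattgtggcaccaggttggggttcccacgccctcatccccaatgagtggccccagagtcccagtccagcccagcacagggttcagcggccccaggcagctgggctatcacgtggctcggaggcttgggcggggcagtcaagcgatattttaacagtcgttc
Trem2 (chr17:48346151-48346450, plus strand): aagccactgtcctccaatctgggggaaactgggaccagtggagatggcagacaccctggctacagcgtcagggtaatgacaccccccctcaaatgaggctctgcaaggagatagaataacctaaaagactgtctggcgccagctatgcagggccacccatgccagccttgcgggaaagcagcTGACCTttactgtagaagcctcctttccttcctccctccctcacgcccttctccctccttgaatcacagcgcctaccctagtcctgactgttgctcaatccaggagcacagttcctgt
Abca1 (chr4:53159846-53160145, minus strand): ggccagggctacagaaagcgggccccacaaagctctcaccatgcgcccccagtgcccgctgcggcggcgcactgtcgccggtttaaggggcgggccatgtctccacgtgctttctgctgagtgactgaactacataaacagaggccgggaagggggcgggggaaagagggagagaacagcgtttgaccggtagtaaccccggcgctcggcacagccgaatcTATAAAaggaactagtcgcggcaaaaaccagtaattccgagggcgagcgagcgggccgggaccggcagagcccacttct

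The first question was how the members differ between cell types in WT mice. Of the 10 members, 9 were higher in SPMs than in monocytes and 9 were higher in lung macrophages than in monocytes by edgeR's quasi-likelihood test (adjusted p under 0.05 and an absolute log2 difference over 0.5). Fabp5 was the exception in both. Such calls were common. In SPMs against monocytes 41.9% of all tested genes were called, 21.8% higher and 20.1% lower, and in lung macrophages against monocytes 63.8%, 39.5% higher and 24.4% lower, and the median log2 difference was 3.45 and 3.99 over the members against 0.00 and 0.34 over all genes. TMM scaling takes most genes to be unchanged, and with 63.8% of genes called this cannot be taken for granted between cell types. Cell type, sort and deposited table coincide and cannot be told apart, and whether the lung table was counted like the others is unclear. Levels in this comparison are CPM on 1 scale shared by all 26 samples, on which SPM values are 1.82 times those of their own table and lung and monocyte values 0.782 and 0.779 times (medians over samples). With library sizes alone in place of TMM, an alternative chosen after seeing the data, every difference between SPMs and another cell type moved towards lower SPM levels (the median over all genes from 0.00 to -0.96 against monocytes and from 0.41 to 1.62 for lung macrophages against SPMs), and the calls of members that this changed are given with each gene.

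Apoe, the lipoprotein component that macrophages secrete, was the most abundant member per length. WT monocytes held 557, 189, 401 and 293 CPM on the shared scale, WT SPMs 16303, 22682, 29862 and 28382, and WT lung macrophages 5101, 3714, 6606, 3142 and 6400. No sample of a cell type reached the range of another. The log2 difference was 6.08 ± 0.48 (SE) between SPMs and monocytes (adjusted p = 1.98e-10, edgeR), 3.79 ± 0.42 (SE) between lung macrophages and monocytes, and -2.28 ± 0.37 (SE) between lung macrophages and SPMs (adjusted p = 9.07e-06, edgeR). Lpl, lipoprotein lipase, which frees fatty acids from lipoproteins, was highest in SPMs too, with a mean of 904 CPM against 68.9 in monocytes. Its log2 difference was 3.71 ± 0.45 (SE) between SPMs and monocytes and -2.60 ± 0.39 (SE) between lung macrophages and SPMs. Lung macrophages held 149, 91.6, 351, 85.0 and 68.6 CPM and monocytes 97.0, 43.9, 72.8 and 62.1, so these groups overlapped. The call of higher Lpl in lung macrophages than in monocytes (log2 difference 1.11 ± 0.39 (SE), adjusted p = 0.0148 by edgeR) was lost without WT lung replicate 3, at 0.52 (adjusted p = 0.150), and without WT monocyte replicate 2 (adjusted p = 0.0589).

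The uptake receptor Cd36, a scavenger receptor for fatty acids and oxidised lipoproteins, had the largest difference of the members between each macrophage type and monocytes. WT monocytes held 1.5, 1.37, 2.0 and 1.55 CPM, SPMs 239, 498, 438 and 517, and lung macrophages 1206, 882, 285, 654 and 1116. Every macrophage sample lay far above every monocyte sample, while SPMs and lung macrophages overlapped through the lung value of replicate 3. The log2 difference from monocytes was 8.03 ± 0.48 (SE) in SPMs and 9.0 ± 0.50 (SE) in lung macrophages, and lung macrophages were above SPMs by 0.97 ± 0.34 (SE) (adjusted p = 0.0146, edgeR). That last call was lost without WT SPM replicate 1 (log2 difference 0.78, adjusted p = 0.0551). Trem2, a lipid-sensing receptor of macrophages, was above monocytes by 3.19 ± 0.48 (SE) in SPMs and by 4.19 ± 0.49 (SE) in lung macrophages. Lung samples held 37.8, 23.3, 144, 15.6 and 29.2 CPM and SPMs 14.8, 20.9, 34.7 and 29.9, and only lung replicates 1 and 3 were above every SPM sample. The difference between these macrophages, 1.00 ± 0.42 (SE) (adjusted p = 0.0422, edgeR), fell to 0.08 without that library (adjusted p = 0.804), and its call was also lost without WT SPM replicate 1, 2 or 4, with RLE factors (adjusted p = 0.0713) and with DESeq2 (adjusted p = 0.0594).

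The fatty acid binding proteins FABP4 and FABP5 are close relatives, and in lung macrophages against monocytes their genes went in opposite directions. Fabp4 held 1.15, 1.32, 1.22 and 2.61 CPM in WT monocytes, 15.3, 51.9, 81.1 and 84.2 in SPMs and 201, 314, 27.2, 334 and 455 in lung macrophages. All monocyte samples were below all macrophage samples, and lung replicate 3 lay inside the SPM range. Its log2 difference from monocytes was 5.19 ± 0.63 (SE) in SPMs and 7.39 ± 0.68 (SE) in lung macrophages, and 2.20 ± 0.52 (SE) between lung macrophages and SPMs (adjusted p = 7.02e-04, edgeR). Fabp5 held 118, 135, 159 and 149 CPM in monocytes, 47.8, 102, 91.1 and 138 in SPMs and 66.8, 47.9, 82.9, 34.5 and 27.6 in lung macrophages. All lung samples were below all monocyte samples, and the SPMs overlapped with both. Fabp5 fell in lung macrophages against monocytes by 1.43 on the log2 scale (SE 0.37, adjusted p = 0.00157, edgeR) and was not called between SPMs and monocytes (-0.57 ± 0.39 (SE), adjusted p = 0.267, edgeR). With library sizes alone the latter was called lower, at -1.79 (adjusted p = 1.80e-04). Between lung macrophages and SPMs the Fabp5 difference of -0.87 ± 0.37 (SE) (adjusted p = 0.0431, edgeR) turned to 0.44 with library sizes alone (adjusted p = 0.247), and its call was lost when any 1 of 6 WT SPM or lung libraries was left out, so its direction depends on the scaling. Reads that Fabp5 may share with near-identical copies elsewhere in the genome cannot be told apart in these tables.

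The exporters of sterol were the next group. Abca1, which loads cholesterol onto lipid-poor APOA1, held 0.750, 0.588, 0.738 and 0.664 CPM in WT monocytes, 16.8, 7.87, 5.91 and 6.25 in SPMs and 9.69, 16.8, 25.0, 11.7 and 8.69 in lung macrophages. All macrophage samples were above all monocyte samples, by a log2 difference of 3.74 ± 0.49 (SE) in SPMs and 4.38 ± 0.49 (SE) in lung macrophages. Abcg1, which exports sterol to mature lipoprotein particles, was above monocytes by 1.47 ± 0.40 (SE) in SPMs (adjusted p = 0.00405, edgeR) and by 2.07 ± 0.39 (SE) in lung macrophages, and with library sizes alone the SPM call was lost (0.43, adjusted p = 0.428). Neither exporter was called between the macrophages (0.63 ± 0.40 (SE) and 0.61 ± 0.37 (SE)), where library sizes alone, or leaving out WT SPM replicate 1, gave a call of higher levels in the lung for both. Nr1h3, which encodes the liver X receptor LXR alpha, was lowest in monocytes, at 1.40, 1.23, 1.22 and 1.11 CPM. SPMs held 4.39, 6.11, 7.15 and 6.45 CPM and lung macrophages 38.9, 31.0, 16.1, 28.3 and 47.1. The 3 ranges did not overlap. SPMs against monocytes and lung macrophages against SPMs both passed the test, at 2.27 ± 0.40 (SE) and 2.43 ± 0.37 (SE) (adjusted p = 4.83e-05 and 3.57e-06, edgeR). Plin2, which coats lipid droplets, held 258, 249, 335 and 289.7 CPM in monocytes, 317, 774, 958 and 905 in SPMs and 1222, 1080, 354, 1053 and 2055 in lung macrophages. Monocytes were the lowest and overlapped with SPMs through SPM replicate 1. Plin2 was above monocytes by 1.38 ± 0.36 (SE) in SPMs and 2.03 ± 0.36 (SE) in lung macrophages, and the SPM call was lost with library sizes alone (0.14, adjusted p = 0.740), which in turn gave a call between the macrophages (1.95, against 0.64 ± 0.34 (SE) and adjusted p = 0.101 by edgeR with TMM). Leaving out WT lung replicate 3, the lowest lung sample, also gave that call, at 0.87. Between lung macrophages and SPMs 7 of the 10 members were called, 4 higher and 3 lower in the lung, where 62.3% of all genes were called, 39.1% higher and 23.2% lower. In counts these were 6956 higher and 4126 lower, which became 11809 and 1685 with library sizes alone.

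**Figure D1:**
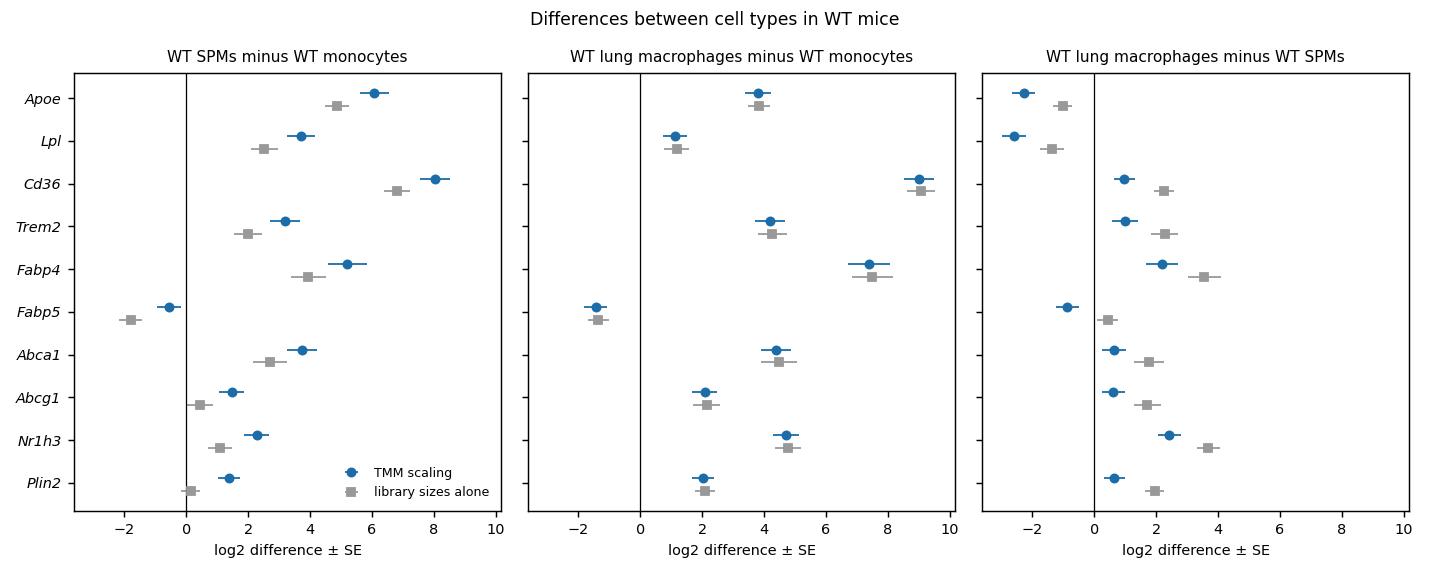
Log2 differences (x axis, ± SE) of the 10 members (y axis) between cell types in WT mice, from the edgeR fit of all 26 samples with TMM scaling (circles) and with library sizes alone (squares). Cd36 lies farthest to the right against monocytes in both comparisons, followed by Apoe in SPMs and by Fabp4 in lung macrophages, Fabp5 lies left of 0 except with library sizes alone between lung macrophages and SPMs, and in both panels with SPMs the squares are shifted against the circles by a nearly constant amount.

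Levels of different genes can be compared only per length. Divided by the length of the longest coding transcript, on each cell type's own scale, Apoe was the highest of the members in every WT cell type, Plin2 came next, and Abca1 was the lowest. Apoe reached 328 ± 148 CPM per kb in monocytes, 9757 ± 2112 in SPMs and 4566 ± 1400 in lung macrophages (SD). Plin2 and Fabp5 were neighbours in monocytes, at 192 ± 26.3 and 182 ± 21.9 CPM per kb (SD), a difference within their spread. In lung macrophages Fabp4 and Cd36 followed Plin2, at 382 ± 231 and 310.3 ± 129 CPM per kb (SD), also within their spread, and they changed places when the total exon length in the tables was used. That length is 4489 bases for Fabp4, its whole span, against 896 for its transcript.

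The second question was whether the members differ between ACKR2-/- and WT mice. By edgeR's quasi-likelihood test, 0 of the 10 members were called in monocytes, 0 in SPMs and 0 in lung macrophages, where 1.27%, 0.0462% and 0% of all tested genes were called. At an unadjusted p under 0.05 there were 0, 1 and 1 members, Fabp5 in SPMs and Trem2 in lung macrophages, where 17%, 5.46% and 2.97% of all genes passed that level. DESeq2 also called 0 in each cell type, as did every other alternative run. The values of the genotypes overlapped for all 10 members in all 3 cell types. Most genes without a difference would overlap too, and the share over all genes was not counted. The median log2 fold change of the members was -0.06 in monocytes, 0.04 in SPMs and 0.05 in lung macrophages, against 0.00, -0.05 and -0.04 over all genes. An exact permutation test can give no p below 0.0286 for 4 samples against 4 or 0.00794 for 5 against 5, and the smallest of the 30 for these members was 0.0571, for Fabp5 in SPMs. A missed threshold does not show that the levels were alike.

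**Figure D2:**
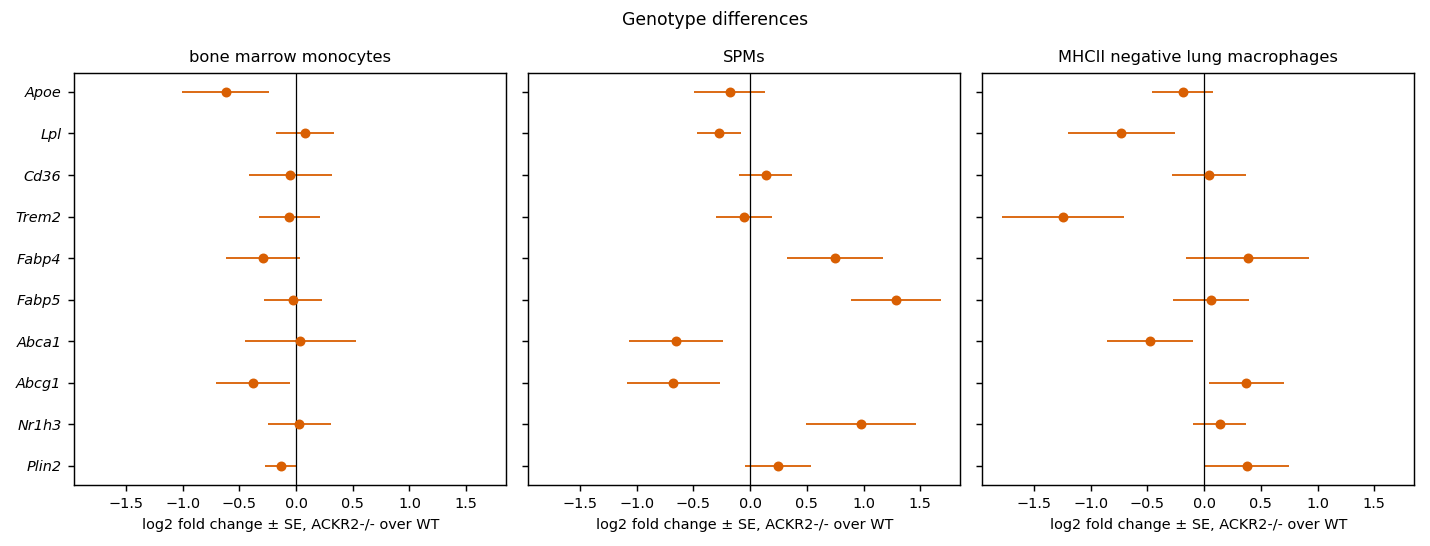
Log2 fold change of ACKR2-/- over WT (x axis, ± SE) for the 10 members (y axis) in each cell type, from edgeR. The monocyte points lie between -0.62 and 0.08, and Fabp5 in SPMs and Trem2 in lung macrophages lie farthest out, at 1.28 and -1.25.

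In bone marrow monocytes Apoe had the largest difference. WT samples held 725, 239, 515 and 369.9 CPM and ACKR2-/- samples 122, 256, 444 and 381, on the scale of the monocyte table, which all CPM below use in the same way for their own cell type. ACKR2-/- replicate 1 was the lowest of the 8 and WT replicate 1 the highest, and the other 6 overlapped. The log2 fold change was -0.62 ± 0.38 (SE) (adjusted p = 0.426, edgeR). Fabp5 held 154, 172, 204 and 189 CPM in WT and 89.0, 157, 260.3 and 198 in ACKR2-/- monocytes, with the ACKR2-/- range reaching beyond the WT range at both ends and a log2 fold change of -0.03 ± 0.25 (SE). Plin2 held 336, 315, 429 and 366 CPM in WT and 283, 312, 344 and 379 in ACKR2-/- monocytes, and its log2 fold change was -0.13 ± 0.14 (SE). The other 7 members had log2 fold changes from -0.38 (Abcg1) to 0.08 (Lpl). Cd36, Trem2, Fabp4, Abca1 and Nr1h3 were below 5 CPM in every monocyte sample, and Abca1 rested on 5 to 32 reads per sample. ACKR2-/- replicate 1 was the highest or lowest of the 8 samples for 8 of the 10 members, and the share over all genes was not counted.

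In SPMs the member with the smallest p was Fabp5. WT samples held 29.7, 56.9, 51.5 and 74.3 CPM and ACKR2-/- samples 209, 82.4, 62.4 and 164. ACKR2-/- replicates 1 and 4 were above all others, and replicates 2 and 3 lay near or within the WT range. The log2 fold change was 1.28 ± 0.40 (SE) (unadjusted p = 0.00816, adjusted p = 0.788 by edgeR, adjusted p = 0.284 by DESeq2), and the two-sided exact permutation p was 0.0571. Without ACKR2-/- replicates 1 and 4, which had the highest sums of large peritoneal macrophage markers, it was 0.45 ± 0.36 (SE). Nr1h3 held 2.73, 3.41, 4.05 and 3.47 CPM in WT and 6.25, 3.48, 2.52 and 14.5 in ACKR2-/- SPMs. The same pair of samples was highest, and replicate 4 alone stood well above. Its log2 fold change was 0.98 ± 0.49 (SE) (adjusted p = 0.788, edgeR), 0.26 without replicate 4 and -0.18 without replicates 1 and 4. In those 2 libraries Saa3, an acute phase gene that made up 85.7% of the marker sum over all SPM samples, held 13365 and 17023 CPM against 587 to 2755 in the other 6, and Marco, a scavenger receptor, 206 and 311 CPM against 5.85 to 31.6.

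**Figure D3:**
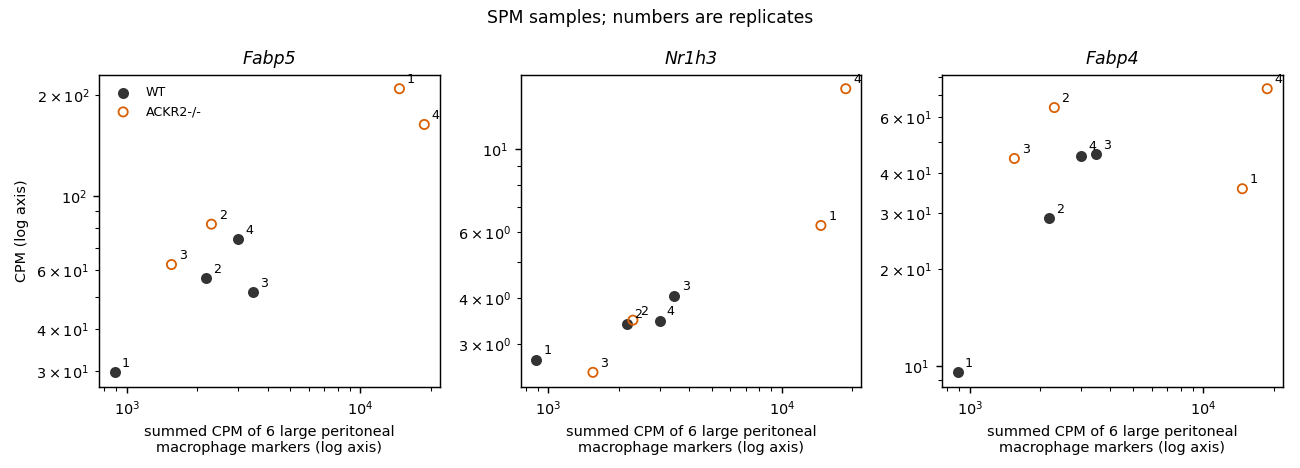
Fabp5, Nr1h3 and Fabp4 (y axes, CPM, log scale) against the summed CPM of 6 large peritoneal macrophage markers (x axes, log scale) in the 8 SPM samples, with replicate numbers beside the points. ACKR2-/- replicates 1 and 4 lie at the right in every panel and are the highest points for Fabp5 and Nr1h3, and WT replicate 1 is the leftmost point throughout and the lowest for Fabp5 and Fabp4.

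Fabp4 held 9.54, 28.9, 45.9 and 45.3 CPM in WT and 35.8, 64.1, 44.4 and 73.4 in ACKR2-/- SPMs (log2 fold change 0.75 ± 0.43 (SE)). WT replicate 1 was far below the other 7. The exporters had the reverse pattern. Abca1 held 10.4, 4.39, 3.34 and 3.36 CPM in WT and 3.45, 2.64, 2.42 and 5.22 in ACKR2-/- SPMs, and Abcg1 24.9, 7.69, 8.71 and 8.28 and 7.93, 5.87, 5.59 and 11.6. WT replicate 1 was the highest sample for both. It was the highest or lowest SPM sample for 7 of the 10 members, and the share over all genes was not counted. That sample also had the lowest sum over 6 dendritic cell markers (154 CPM against 202 to 1231 in the other 7), the lowest over the B cell markers (168 against 341 to 549) and the highest over the monocyte markers (2498 against 1015 to 1843), and their part in the result was not tested. The log2 fold changes of Abca1 and Abcg1 were -0.65 ± 0.42 (SE) and -0.68 ± 0.41 (SE), and without that replicate -0.11 and -0.08. Apoe held 10134, 12645, 16898 and 15275 CPM in WT and 18240, 12267, 7254 and 10730 in ACKR2-/- SPMs, with both extremes among the ACKR2-/- samples and a log2 fold change of -0.18 ± 0.31 (SE). Lpl, Cd36, Trem2 and Plin2 had log2 fold changes from -0.27 to 0.24.

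In MHCII negative lung macrophages the largest difference was in Trem2. WT samples held 45.8, 30.2, 193, 21.3 and 36.4 CPM and ACKR2-/- samples 21.8, 28.2, 24.9, 26 and 36.7. WT replicate 3 stood far above the other 9, which overlapped. The log2 fold change was -1.25 ± 0.54 (SE) (unadjusted p = 0.0395, adjusted p = 0.9999, edgeR), and -0.26 ± 0.25 (SE) without WT replicate 3. Lpl held 181, 119, 471, 116 and 85.6 CPM in WT and 173, 137, 136, 50.1 and 89.6 in ACKR2-/- samples. The same library was highest, and the log2 fold change of -0.73 ± 0.47 (SE) became -0.08 without it. That library was the highest of the 10 lung samples for Apoe, Lpl, Trem2, Fabp5 and Abca1 and the lowest for Cd36, Fabp4, Abcg1, Nr1h3 and Plin2, which makes it an extreme for all 10 members. The share of all genes for which it was an extreme was not counted. Fabp4 was 36.4 CPM in it and 226 to 622 in the other 9. Plin2 was 475 against 1354 to 2810 CPM, Cd36 382 against 766 to 1536, and Abca1 33.5 against 8.29 to 22.4.

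**Figure D4:**
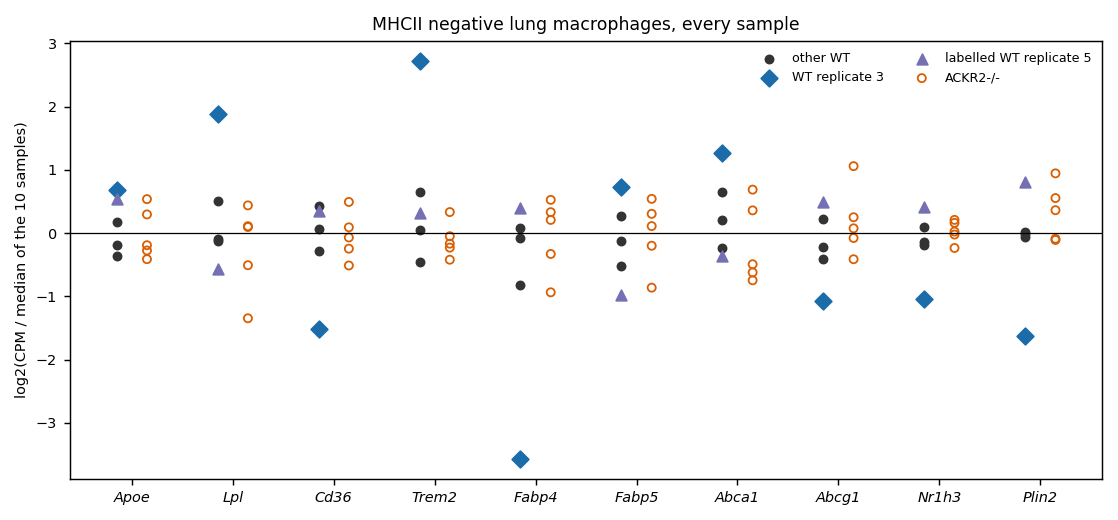
Each member in each of the 10 lung samples, as log2 of its CPM over the median of the 10 samples (y axis), for ACKR2-/- samples (open circles), WT replicate 3 (diamonds), the library labelled WT replicate 5 (triangles) and the other WT samples (filled circles). WT replicate 3 is the highest point for 5 members and the lowest for the other 5.

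In the same library the sum over 8 of 8 lung interstitial macrophage markers was 12732 CPM against 401 to 1871 in the other 9, the sum over 6 of 6 dendritic cell markers 1119 against 34.2 to 274, and C1qa, a complement gene of tissue macrophages, 2749 against 65.0 to 351. The sum over the 8 alveolar macrophage markers found was 702 CPM against 1251 to 1846. Without that library the WT mean was 33.4 ± 10.3 CPM for Trem2 (SD, n = 4) against 27.5 ± 5.64 in ACKR2-/- samples (SD, n = 5), and exact permutation tests gave p from 0.302 to 0.889 for the 10 members. Without it, the sign turned for Cd36 (0.04 to -0.15) and Nr1h3 (0.14 to -0.005), both near 0. Plin2 held 1482, 1401, 475, 1440 and 2562 CPM in WT and 1354, 1373, 1877, 2810 and 2144 in ACKR2-/- samples. ACKR2-/- replicate 4 and the library labelled WT replicate 5 were its highest values, and these were also the 2 samples with the lowest epithelial sums, 253 and 421 CPM. Its log2 fold change was 0.38 ± 0.37 (SE), with the library labelled WT replicate 5 counted as WT. Over all alternatives run, which included leaving out that library, it ran from 0.17 to 0.72 and was never called. Cd36 held 1462, 1144, 382, 894 and 1391 CPM in WT and 1163, 1041, 921, 1536 and 766 in ACKR2-/- samples, with a log2 fold change of 0.04 ± 0.33 (SE). The remaining members, Apoe, Fabp4, Fabp5, Abca1, Abcg1 and Nr1h3, had log2 fold changes from -0.48 (Abca1) to 0.38 (Fabp4).

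**Figure D5:**
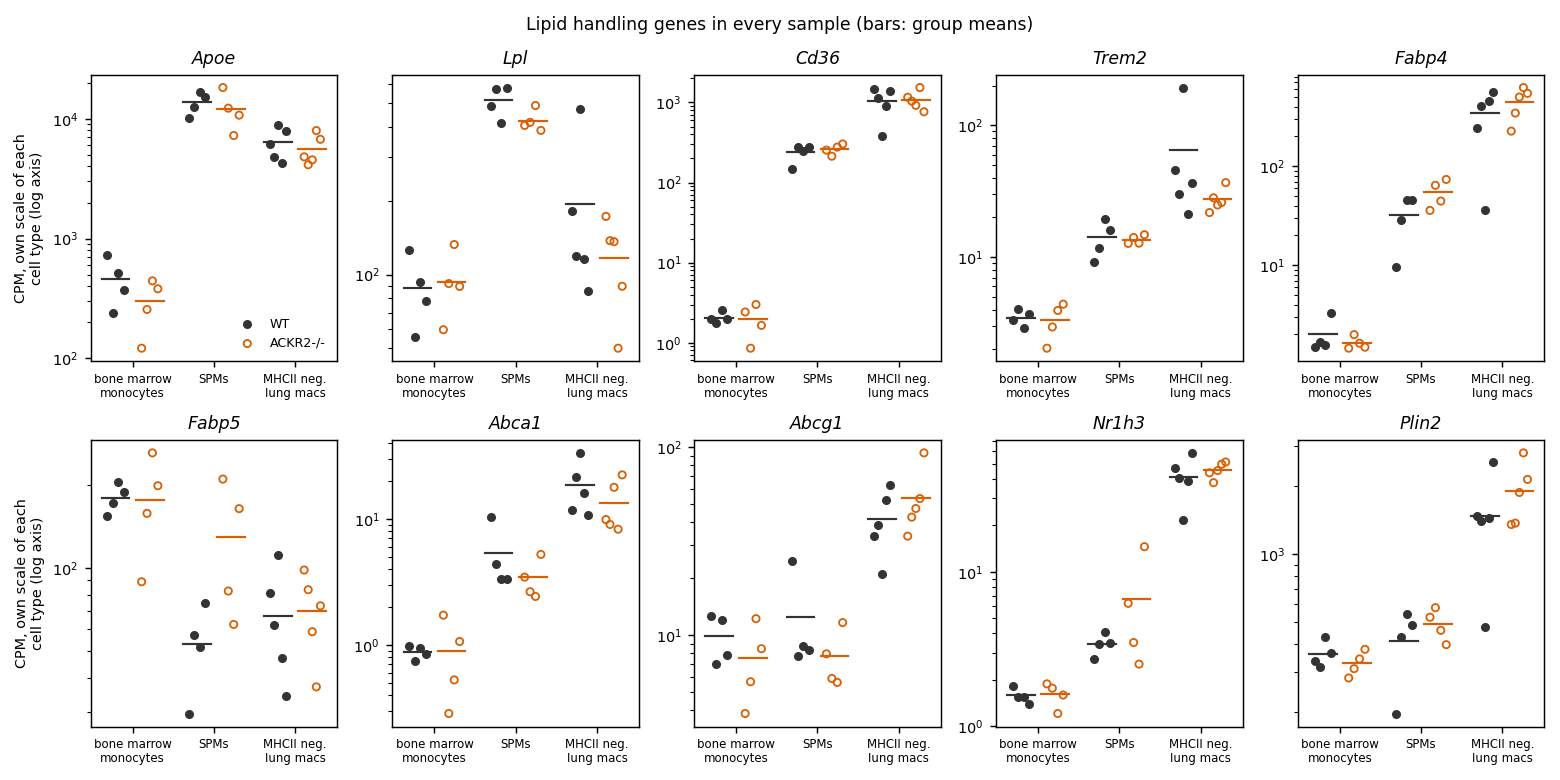
CPM (y axes, log scale, each cell type on its own scale) of the 10 members in every WT (filled) and ACKR2-/- (open) sample of the 3 cell types, with bars at group means. The genotypes overlap in every panel, and single samples stand away from their group for Trem2 and Lpl in lung macrophages and for Abca1 and Abcg1 in SPMs.

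The effect of the genotype was also compared between cell types, as an interaction in the fit of all 26 samples. By edgeR 0 of 10 members passed in each of the 3 comparisons, where 0.253% of all genes passed between SPMs and monocytes, 0.152% between lung macrophages and monocytes and 0.0393% between lung macrophages and SPMs. The comparisons share samples. DESeq2 also passed 0 members, and at an unadjusted p under 0.05 edgeR gave 1, 0 and 2 members, where 7.46%, 6.07% and 6.15% of all genes passed. Fabp5 differed by 1.36 ± 0.55 (SE) between SPMs and monocytes (adjusted p = 0.576, edgeR) and by -1.25 ± 0.53 (SE) between lung macrophages and SPMs (adjusted p = 0.787, edgeR). Trem2 differed by -1.23 ± 0.59 (SE) between lung macrophages and SPMs (adjusted p = 0.803, edgeR), and by -0.31 without WT lung replicate 3.

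Other genes of the same pathways were counted by lists of lipoprotein genes, uptake receptors, fatty acid binding proteins, sterol transport, nuclear receptors, lipid droplets, LXR targets of fatty acid metabolism, lipid associated macrophage genes and sterol synthesis. Of these 86 genes beside the members, 67 were tested in monocytes, 68 in SPMs and 78 in lung macrophages, and 0 were called between genotypes by edgeR, while DESeq2 called 2 in monocytes and 0 in the others. At an unadjusted p under 0.05 there were 5 higher and 10 lower in ACKR2-/- monocytes, 6 higher and 0 lower in SPMs and 0 in lung macrophages. Of all genes 8.83% were higher and 8.17% lower at that level in monocytes, and 2.93% and 2.52% in SPMs. In monocytes 5 of the 11 tested lipid droplet genes were lower at that level, beside 8.17% of all genes, and the median log2 fold change of the list was -0.50 against 0.00 over all genes. They included Pnpla2, the main triglyceride lipase of droplets (-0.60 ± 0.14 (SE), adjusted p = 0.0705 by edgeR), and Abhd5, its co-activator (-0.61 ± 0.16 (SE), adjusted p = 0.0890 by edgeR). Both were called by DESeq2 and without the filter on low counts. The lipid droplet count in monocytes was the largest of any list and direction between genotypes, and no test of a list was run. Lipa, the lysosomal acid lipase, had -0.64 ± 0.21 (SE) and Srebf2, a regulator of sterol synthesis, -0.58 ± 0.18 (SE). In SPMs the smallest p was for Fdps, an enzyme of sterol synthesis (1.74 ± 0.40 (SE), adjusted p = 0.718 by edgeR), followed by the receptors Scarb1 (0.91 ± 0.28 (SE)) and Marco (2.73 ± 0.85 (SE)). Marco was called by edgeR with no filter on low counts (adjusted p = 0.0457). Without ACKR2-/- replicates 1 and 4 the log2 fold change was 0.08 ± 0.55 (SE) for Marco, 0.42 ± 0.30 (SE) for Scarb1 and 1.59 ± 0.57 (SE) for Fdps.

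Between WT cell types 28 of 79 other listed genes were called higher in SPMs than in monocytes and 20 lower, and 44 higher and 12 lower in lung macrophages than in monocytes. Among all genes these shares were 21.8% and 20.1% for SPMs and 39.5% and 24.4% for lung macrophages. With library sizes alone the counts against monocytes were 12 higher and 41 lower in SPMs and 44 higher and 10 lower in lung macrophages. Of all genes 1615 were then higher and 8349 lower in SPMs than in monocytes, where TMM scaling gave 3877 and 3569. Pparg, the nuclear receptor that drives much of the alveolar macrophage programme, was above monocytes by 6.24 ± 0.50 (SE) in lung macrophages and by 2.85 ± 0.44 (SE) in SPMs. Nr1h2, which encodes the second liver X receptor, was above monocytes by 0.74 ± 0.21 (SE) in lung macrophages and below them by 0.98 in SPMs (log2). Apoc1, a lipoprotein gene 3.45 kb from Apoe, was highest in SPMs, at 3.45 ± 0.45 (SE) against monocytes, and did not pass the test between lung macrophages and monocytes (-0.37 ± 0.40 (SE)). Tyrobp, the adaptor through which TREM2 signals, was higher in SPMs than in monocytes (2.47 ± 0.27 (SE)) and lower in lung macrophages than in SPMs (-2.79 ± 0.25 (SE)). Msr1, a scavenger receptor, was below monocytes in lung macrophages (-1.40 ± 0.37 (SE)). Its higher level in SPMs than in monocytes (1.19 ± 0.39 (SE)) was not called with library sizes alone (log2 difference -0.03) or without WT monocyte replicate 2 or WT SPM replicate 3. Plin3, a droplet protein related to Plin2, was below monocytes in lung macrophages (-1.54 ± 0.27 (SE)). Fabp3, a fatty acid binding protein, was above monocytes by 2.16 ± 0.61 (SE) in lung macrophages. In SPMs its call (1.82 ± 0.64 (SE)) was lost with library sizes alone (log2 difference 0.63) and without WT monocyte replicate 1, 2 or 4 or WT SPM replicate 3. The call of Lipa as higher in lung macrophages than in monocytes (0.53 ± 0.23 (SE)) was lost with no filter on low counts, with the replicate block, without WT monocyte replicate 2, 3 or 4 and without WT lung replicate 2, 4 or 5. Gpnmb, a gene of lipid-laden macrophages, had 0 reads in all 4 WT SPM samples and 153 to 651 in WT lung samples.

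Members were also compared with each other over all 26 samples after the mean of each cell type was removed, as a description. Fabp4 and Plin2 were the most alike pair (r = 0.88), followed by Cd36 and Plin2 (r = 0.71) and Cd36 and Fabp4 (r = 0.64), while Abca1 and Plin2 (r = -0.69) and Lpl and Fabp4 (r = -0.68) varied in opposite directions. These points share libraries, and WT lung replicate 3 and WT SPM replicate 1 lie far out for several of the genes. Among all other tested genes, the most alike was Adssl1 for Plin2 (r = 0.92), Rgs10 for Trem2 (r = 0.94), Tmem176b for Lpl (r = 0.91), Sephs2 for Fabp4 (r = 0.89), Bach1 for Abcg1 (r = 0.90), Cd300e for Nr1h3 (r = 0.89), Rrad for Fabp5 (r = 0.87), Lcp2 for Cd36 (r = 0.86), Hacd4 for Apoe (r = 0.82) and Mitf for Abca1 (r = 0.82). Of 240 relations between a member and a summed marker list within a cell type, 4 passed both adjusted permutation tests. In the 10 lung samples Fabp5 followed the dendritic cell sum (Pearson's r = 0.87, permutation p = 1.40e-04, adjusted p = 0.0168, and Spearman's rho = 0.94, permutation p = 2.40e-04, adjusted p = 0.0272), with r = 0.93 without the 2 samples farthest out. Lpl followed the same sum (Pearson's r = 0.95, permutation p = 2.60e-04, adjusted p = 0.0208, and Spearman's rho = 0.93, permutation p = 3.20e-04, adjusted p = 0.0272), with r = 0.73 without those samples. Nr1h3 followed the alveolar macrophage sum in the lung (Pearson's r = 0.94, permutation p = 1.00e-03, adjusted p = 0.0480, and Spearman's rho = 0.93, permutation p = 3.40e-04, adjusted p = 0.0272), with r = 0.76 without the farthest 2. In the lung Ear2 alone made up 78.1% of the alveolar macrophage sum and Ccr7 67.0% of the dendritic cell sum. Ear2 also made up 97.4% of the alveolar macrophage sum in monocytes and 86.4% in SPMs. In the 8 SPM samples Nr1h3 followed the large peritoneal macrophage sum (Pearson's r = 0.91, permutation p = 3.47e-04, adjusted p = 0.0208, and Spearman's rho = 0.95, permutation p = 0.00114, adjusted p = 0.0468, exact), with r = 0.85 without ACKR2-/- replicates 1 and 4.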

How the data were processed

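The submitters' processing notes name the build mm10, HISAT2 2.0.5, featureCounts 1.5.0-p3 and DESeq2. The authors deposited raw counts per gene, in 1 table per cell type, and no deposited value was normalized. The lung table also held 5 summary lines with 56.3% of all its counts, which were left out. Such lines were in no other table, and the tables listed 57186 genes (lung), 54863 (SPMs) and 54375 (monocytes). Whether the lung reads were counted with the same tool and gene set is therefore unclear. From the counts, CPM were computed on TMM scales, and genes were filtered with filterByExpr (at least 10 counts, total 15). Genotypes were compared within each cell type, and cell types and interactions in 1 fit of all 26 samples, by edgeR 4.0.16 quasi-likelihood tests (R 4.3.3) with Benjamini-Hochberg adjustment over all tested genes. DESeq2 1.42.0 was an alternative, as were RLE factors, library sizes alone, no filter, a robust fit, a replicate block and leaving out libraries. Exact permutation tests were enumerated in Python 3.11.15, ranks for Spearman's rho used scipy 1.17.1, and correlations over 10 samples used 100000 permutations. The scripts were tested on simulated data. Replicates are samples that the labels number, so p-values measure the spread between these samples.

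The 10 members and all gene and marker lists were chosen with earlier results of these data known. The rule for named genes took all 10 members, up to 2 other genes per list and genotype comparison with the smallest unadjusted p, Nr1h2, Pparg, Tyrobp, Apoc1, Apoc2, Msr1, Fabp3, Gpnmb, Lipa and Plin3 between cell types, Ackr2, marker genes as checks, and up to 3 most alike genes per member (Pearson r of log2 CPM after removing cell type means), of which the first is given. Library sizes alone, DESeq2 without a library and SPMs without ACKR2-/- replicates 1 and 4 were chosen after seeing the data.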

Additional observations from a re-analysis of the deposited data

Results flagged for a closer look

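Of the 60 groups of 4 or 5 samples formed by the members, cell types and genotypes, 5 held a sample that stood apart from its group by Dixon's criterion, where chance gives about 3. Trem2 in WT lung replicate 3 was 193 CPM against 21.3 to 45.8 in the other 4 WT samples, and Lpl in the same library 471 CPM against 85.6 to 181. In WT SPM replicate 1 Abca1 was 10.4 CPM against 3.34 to 4.39 in the other 3, and Abcg1 24.9 CPM against 7.69 to 8.71. Fabp4 in WT monocyte replicate 4 was 3.30 CPM against 1.5 to 1.68.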

How the results depend on the processing

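No member passed the threshold between genotypes, or in the interactions, under any alternative run. The number of genes called between genotypes in monocytes, 168, became 494 with DESeq2 and 346 with no filter on low counts, in SPMs 6 became 33 and 52 and, with DESeq2 without WT replicate 1, 29, and in lung macrophages 0 became 20 with DESeq2 and 9 with DESeq2 without WT replicate 3. Interactions went from 45, 27 and 7 genes to 138, 109 and 23 with DESeq2, the second to 42 with no filter and the third to 3 with library sizes alone. Leaving out 1 replicate gave 76 to 413 genes in monocytes, 3 to 8 genes in SPMs, 29 to 57 genes between SPMs and monocytes, 13 to 53 genes between lung macrophages and monocytes and 4 to 7 genes between lung macrophages and SPMs. Fabp5 between lung macrophages and SPMs reversed to 0.44 with library sizes alone. The cause was not tested.

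Between genotypes and in the interactions, 0 of the members that changed sign were called. In SPMs these were Cd36 (-0.0490) and Plin2 (-0.00669) with DESeq2 without WT replicate 1, and Nr1h3 without ACKR2-/- replicates 1 and 4 (-0.18). In lung macrophages they were Apoe (0.19) and Cd36 (-0.0597) without WT libraries 3 and 5, and Cd36 (-0.15) and Nr1h3 (-0.00758) with DESeq2 without WT replicate 3. In the interactions Trem2 became -0.00989 with DESeq2 and -0.00769 with RLE factors (SPMs and monocytes). Between lung macrophages and monocytes Cd36 became -0.0464 and Nr1h3 -0.0266 with library sizes alone, and Cd36 -0.0133 without WT libraries 3 and 5. Between lung macrophages and SPMs Apoe became 0.0354 with DESeq2 and 0.0354 with RLE factors, 0.28 without WT libraries 3 and 5, and Plin2 -0.0514 with library sizes alone. Leaving out 1 replicate gave log2 ranges that cross 0, in monocytes Lpl -0.13 to 0.30, Cd36 -0.31 to 0.21, Trem2 -0.22 to 0.11, Fabp4 -0.41 to 0.0671, Fabp5 -0.27 to 0.19, Abca1 -0.48 to 0.34 and Nr1h3 -0.0567 to 0.15, in SPMs Apoe -0.45 to 0.00136, Cd36 -0.0310 to 0.23 and Trem2 -0.21 to 0.14, in lung macrophages Cd36 -0.15 to 0.21, Fabp5 -0.0941 to 0.34 and Nr1h3 -0.00499 to 0.33, between SPMs and monocytes Trem2 -0.10 to 0.28 and Abcg1 -0.44 to 0.34, between lung macrophages and monocytes Cd36 -0.11 to 0.41, Fabp5 -0.11 to 0.38, Abca1 -0.77 to 0.0124 and Nr1h3 -0.0413 to 0.30, between lung macrophages and SPMs Apoe -0.23 to 0.20, Lpl -0.71 to 0.10, Cd36 -0.36 to 0.0576, Abca1 -0.40 to 0.36 and Plin2 -0.15 to 0.40.

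With the replicate number as a block, Abca1 in monocytes was -0.16 and Trem2 in SPMs 0.00103, and 186, 6 and 0 genes were called between genotypes in monocytes, SPMs and lung macrophages. Higher Trem2 in lung macrophages than in SPMs was not called with the block (0.66). Nothing in the labels ties equal numbers across genotypes, and the correlations of same-numbered samples ran from -0.11 to 0.29 in monocytes, -0.09 to 0.03 in SPMs and -0.07 to 0.63 in the lung. Depth limits the monocyte values of Abca1 (5 to 32 reads) most. On simulated data fewer changes were recovered in SPMs and lung macrophages than in monocytes, and DESeq2 made more false calls than edgeR. Those counts were drawn with the spread that edgeR estimated and without libraries that stand apart. The simulation therefore cannot show which tool's calls are right in these data.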
